A study of Saccharomyces cerevisiae with 24 samples.

Results

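Completion of DNA replication was followed in budding yeast (Saccharomyces cerevisiae) at the last 4 time points of a synchronous S-phase, 40, 45, 50 and 60 min after release from G1. The 8 samples, 1 for each of 2 strains at each time, were taken by strain and time from a series of 24. The question at these times is which loci still hold fewer copies than the rest of the genome when the bulk of the DNA has been copied. One strain, sml1Δ SSDDCS (SSDDCS below), over-expresses the replication initiation factors Cdc45, Dbf4, Dpb11, Sld2, Sld3 and Sld7, and it was set against sml1Δ, which does not. The SSDDCS strain carries 3 integrated cassettes, each driving a pair of genes from the galactose-inducible GAL1-10 promoter: Sld7 with Cdc45 at leu2, SLD3-A with Dbf4-A at his3, and Sld2 with Dpb11 at trp1. By the sample labels, its SML1 deletion is marked with HphNT (the study's strain list has HphMX), and that of the sml1Δ strain with URA3. Both strains are MATa and of W303 background, with the alleles rad5-535, can1-100, ade2-1 and ura3-1 and with his3-11, 15, leu2-3, 112 and trp1-1. Cells of both strains grew in raffinose, were arrested in G1 with alpha factor, received galactose while arrested and were released into galactose, so the sml1Δ culture met the same sugar shift.

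Budding yeast starts replication at many short sites, the origins or autonomously replicating sequences (ARS), and forks that leave neighbouring origins meet and terminate between them. Origins are loaded with helicase in G1, and the factors over-expressed here act when a loaded origin fires: Dbf4 activates the Cdc7 kinase, Sld3 and Sld7 bring Cdc45 to the helicase, and Sld2 and Dpb11 link the helicase to the phosphorylation signal of the cyclin-dependent kinase. These factors are scarce in a normal S-phase, and loci far from an active origin wait longest for a fork. Sml1 inhibits ribonucleotide reductase, and cells without it hold more deoxynucleotides.

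Each table gives, for 1-kb bins, the reads of 1 time point over the reads of the same strain in G1, multiplied by the mean copy number of the genome read from flow cytometry (the bulk factor). That factor was 1.927, 1.958, 1.976 and 1.992 copies in SSDDCS at 40, 45, 50 and 60 min, against 1.934, 1.966, 1.983 and 1.995 copies in sml1Δ. Both cultures were therefore near 2 copies throughout, and the values below are the ratio divided by the bulk factor, in % of the genome mean. A bin at 95% had 5% fewer copies than the average bin of that library. The height of a whole library is set by flow cytometry, so a strain whose whole genome ran late would not show it here.

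There was 1 library for each strain and time, so no p-value is given, and the SD over the 4 late libraries of a strain (n = 4) includes the change with time. The tables hold no read counts and the depth is unknown. In its place, the noise of a single bin, read from differences between neighbouring bins, was 4.89 to 5.50% in the 4 SSDDCS libraries and 4.34 to 5.34% in the 4 sml1Δ libraries. The mean of the 4 libraries had a single-bin noise of 4.18% in SSDDCS and 3.51% in sml1Δ. Were bins independent, its average over 9 neighbouring bins would have a noise of 1.39% in SSDDCS and 1.17% in sml1Δ. That leaves out any error that neighbouring bins share. Of 12079 bins of the genome, 11283 had such a 9-bin average in both strains. A single G1 library divides every library of its strain, so a bin that was over-read in that library is low at every time. The regions are therefore read beside the values at 5 min, when the bulk factor was 1.02 copies in SSDDCS and 1.01 copies in sml1Δ, and beside a second calculation that uses the 5 min library as denominator. The deletion of SML1 and the cassettes cannot be seen in the tables, since each ratio is to the same strain's own G1 DNA, and reads from a cassette and from the native gene cannot be told apart.

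Lagging regions were defined as runs of at least 5 bins whose late mean (the mean over 40 to 60 min, averaged over 9 bins) was at or below 97% of the genome. Annotated origins next to the regions described below are shown first, because the regions lie between them. The 3 origins that follow lie to the right of regions that lagged in sml1Δ, with matches to the 11-base ARS consensus sequence in capitals (all on the complementary strand) and the sequence read from the plus strand of RefSeq R64.
ARS409: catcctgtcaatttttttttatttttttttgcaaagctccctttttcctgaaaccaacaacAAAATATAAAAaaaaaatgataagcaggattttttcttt
ARS1238: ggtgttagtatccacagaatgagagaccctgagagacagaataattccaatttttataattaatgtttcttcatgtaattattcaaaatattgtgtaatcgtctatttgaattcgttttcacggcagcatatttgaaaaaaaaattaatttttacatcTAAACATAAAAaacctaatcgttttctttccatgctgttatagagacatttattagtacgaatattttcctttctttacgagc
ARS1327: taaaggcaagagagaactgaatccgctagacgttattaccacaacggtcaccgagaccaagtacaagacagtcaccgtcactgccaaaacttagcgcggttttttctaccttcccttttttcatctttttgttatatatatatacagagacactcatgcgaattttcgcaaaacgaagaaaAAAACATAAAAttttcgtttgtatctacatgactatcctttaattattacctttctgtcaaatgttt
ARS409 is at chrIV:212519-212618, ARS1238 at chrXII:888570-888810 and ARS1327 at chrXIII:758224-758471. At 25 min, in mid S-phase, the 9-bin mean at ARS409 was 109.3% in SSDDCS and 101.2% in sml1Δ. It was 105.3% in SSDDCS and 99.0% in sml1Δ at ARS1238, and 104.4% in SSDDCS and 100.4% in sml1Δ at ARS1327. All 3 were thus further ahead of the genome in SSDDCS. The bulk factor at 25 min was 1.662 copies in SSDDCS and 1.599 copies in sml1Δ. Values in % of the genome mean at that time therefore do not order the strains in copies.

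The next 3 origins flank regions that were lower in SSDDCS, ARS1310 a region that lagged in SSDDCS, and ARS209 and ARS1018 regions that were lower in SSDDCS than in sml1Δ, printed in the same way (the match is on the complementary strand in ARS1310 and ARS209 and on the plus strand in ARS1018).
ARS1310: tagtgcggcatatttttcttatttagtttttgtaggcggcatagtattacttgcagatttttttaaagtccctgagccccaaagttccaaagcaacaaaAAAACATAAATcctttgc
ARS209: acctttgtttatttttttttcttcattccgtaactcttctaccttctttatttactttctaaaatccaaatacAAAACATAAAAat
ARS1018: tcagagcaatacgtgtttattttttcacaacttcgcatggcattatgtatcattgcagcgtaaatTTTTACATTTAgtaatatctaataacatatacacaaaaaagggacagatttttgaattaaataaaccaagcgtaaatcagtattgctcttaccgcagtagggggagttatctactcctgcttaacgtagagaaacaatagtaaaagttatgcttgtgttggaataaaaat
ARS1310 is at chrXIII:286835-286951, ARS209 at chrII:254998-255083 and ARS1018 at chrX:540546-540780. At 25 min these stood the other way round: 106.4% in SSDDCS and 120.8% in sml1Δ at ARS1310, 103.6% in SSDDCS and 122.4% in sml1Δ at ARS209, and 97.3% in SSDDCS and 117.3% in sml1Δ at ARS1018. The 6 were chosen after their values were seen, from 11 origins of at most 300 bases that flank a named region and hold a match, of which 5 were higher and 6 lower in SSDDCS at 25 min. The other 5 include ARS1220 (107.2% in SSDDCS and 112.4% in sml1Δ) and ARS211 (95.8% in SSDDCS and 99.2% in sml1Δ), beside regions lower in SSDDCS, where the difference was smaller. At ARS220, beside a region that was higher in SSDDCS, the order was the opposite of that region's, with 107.5% in SSDDCS and 112.2% in sml1Δ. Of 352 annotated origins, 124 (35.2%) hold one on either strand, against 1.57% of the 250-base windows of the genome, so a missing match says nothing of an origin's use.

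The difference in copy number between bins was smaller in SSDDCS than in sml1Δ at 40, 45 and 50 min and shrank in both strains toward 60 min. The contrast, the SD between bins left after the noise was subtracted, was 2.43% in SSDDCS and 3.80% in sml1Δ at 40 min. It was 1.46% in SSDDCS and 2.39% in sml1Δ at 45 min, and 1.65% in SSDDCS and 2.05% in sml1Δ at 50 min. At 60 min it was 1.22% in SSDDCS, while in sml1Δ the spread did not exceed the noise. From the covariance of bins 2 apart, which noise of single bins does not enter, the contrast at 60 min was 0.833% in SSDDCS and 0.589% in sml1Δ. With the 5 min denominator the order turned, with 0.461% in SSDDCS and 1.19% in sml1Δ, so the strains cannot be ordered at 60 min. The highest contrast of the time course was 9.85% in SSDDCS and 12.5% in sml1Δ, both at 25 min.

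The same order held when the 60 min library of each strain replaced G1 as denominator, a ratio that holds no G1 reads. The contrast at 40 min over 60 min was then 1.92% in SSDDCS and 3.47% in sml1Δ. It was 1.07% in SSDDCS and 1.93% in sml1Δ at 45 min, and 0.995% in SSDDCS and 2.01% in sml1Δ at 50 min.

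**Figure D1:**
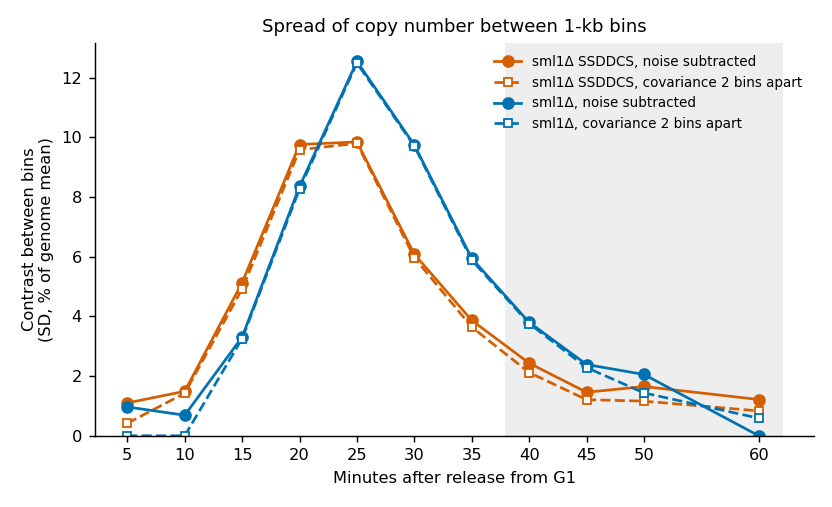
Contrast between 1-kb bins (y axis, SD in % of the genome mean) against minutes after release (x axis) in sml1Δ SSDDCS (orange) and sml1Δ (blue), 1 library per point. Filled circles subtract the noise between neighbours and open squares give the covariance of bins 2 apart, and the grey band marks 40 to 60 min, where SSDDCS lies below sml1Δ at 40, 45 and 50 min (2.43% against 3.80% at 40 min).

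Fewer bins lagged in SSDDCS than in sml1Δ. In SSDDCS 28 regions lagged, 265 kb in all, or 2.35% of the 11283 bins. In sml1Δ 60 regions lagged, 944 kb or 8.37% of the bins. The same 97% threshold was used for both strains. Were bins independent, the noise of the smoothed late mean would be 1.39% in SSDDCS and 1.17% in sml1Δ. In units of noise the threshold was therefore nearer the genome mean in SSDDCS, and the calls there are the less secure. How much of the 265 kb in SSDDCS and of the 944 kb in sml1Δ noise alone would give was not tested. The regions had a median length of 8 kb (5 to 22 kb) in SSDDCS and of 11 kb (5 to 55 kb) in sml1Δ. They covered 169 annotated genes in SSDDCS and 540 in sml1Δ, and held 0 annotated origins in SSDDCS and 5 in sml1Δ. Of 319 measured origins this is 0% in SSDDCS and 1.57% in sml1Δ, below the shares of bins. The 2 strains shared 118 lagging bins, which is 44.5% of those of SSDDCS and 12.5% of those of sml1Δ. The bins nearest the threshold were at 96.9976% and 97.001% in SSDDCS and at 96.999% and 97.0007% in sml1Δ, and 759 further bins in SSDDCS and 892 in sml1Δ lay between 97 and 98%.

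The lag shrank with time in both strains. The regions of SSDDCS had a median copy number in SSDDCS of 93.1, 95.1, 96.8 and 97.4% at 40, 45, 50 and 60 min. In sml1Δ the same regions were at 94.3, 97.0, 97.3 and 99.5%. These 28 regions were thus low in both strains at 40 min, and the strains stood further apart at 60 min. The regions were chosen for low values in SSDDCS, the 60 min library included, so a difference in that direction is built in. At 5 min their median was already 98.3% in SSDDCS and 99.9% in sml1Δ. The regions of sml1Δ had a median of 97.4, 98.5, 98.9 and 99.6% in SSDDCS, against 93.0, 94.9, 96.0 and 98.5% in sml1Δ. Copy number was higher at 60 than at 40 min in 27 of the 28 regions of SSDDCS and in 59 of the 60 of sml1Δ, each in its own strain. The regions were chosen for low values, the 40 min library included, and the contrast shrank over the whole genome. A rise was therefore in part built in, and the share of all bins that rose, or that stayed at or below 97% at 60 min, was not counted. At 60 min, a library that entered the definition, 13 of the 28 regions of SSDDCS were at or below 97% in SSDDCS, and 6 of the 60 of sml1Δ in sml1Δ. Counted in copies, the median ratio at 60 min was 1.94 in the SSDDCS regions in SSDDCS and 1.96 in the sml1Δ regions in sml1Δ.

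The positions of the regions of SSDDCS depended more on the denominator than those of sml1Δ. At 5 min, 9 of the 28 regions of SSDDCS were already at or below 97% in SSDDCS, against 3 of the 60 regions of sml1Δ in sml1Δ. With the 5 min library as denominator, 90 of the 265 lagging bins of SSDDCS (34.0%) and 665 of the 944 of sml1Δ (70.4%) were called again. That calculation gave 248 kb in SSDDCS and 949 kb in sml1Δ in all, so the totals stayed while many of the positions in SSDDCS changed. The 11 regions of SSDDCS called at least in part both ways (132 kb) were at or below 90% of the genome at 25 and at 30 min in SSDDCS, all 11 of them. Of the other 17 regions (133 kb), 14 were at or below 90% at 25 min and 11 at 30 min, 9 were at or below 97% at 5 min, and their median at 60 min was 96.9% against 97.9% in the 11. The 13 regions at or below 97% at 60 min were 9 of these 17 and 4 of the 11. The part of the shared G1 library in these 17 was not tested further. The share of all bins at or below 90% at 25 or 30 min was not counted.

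**Figure D2:**
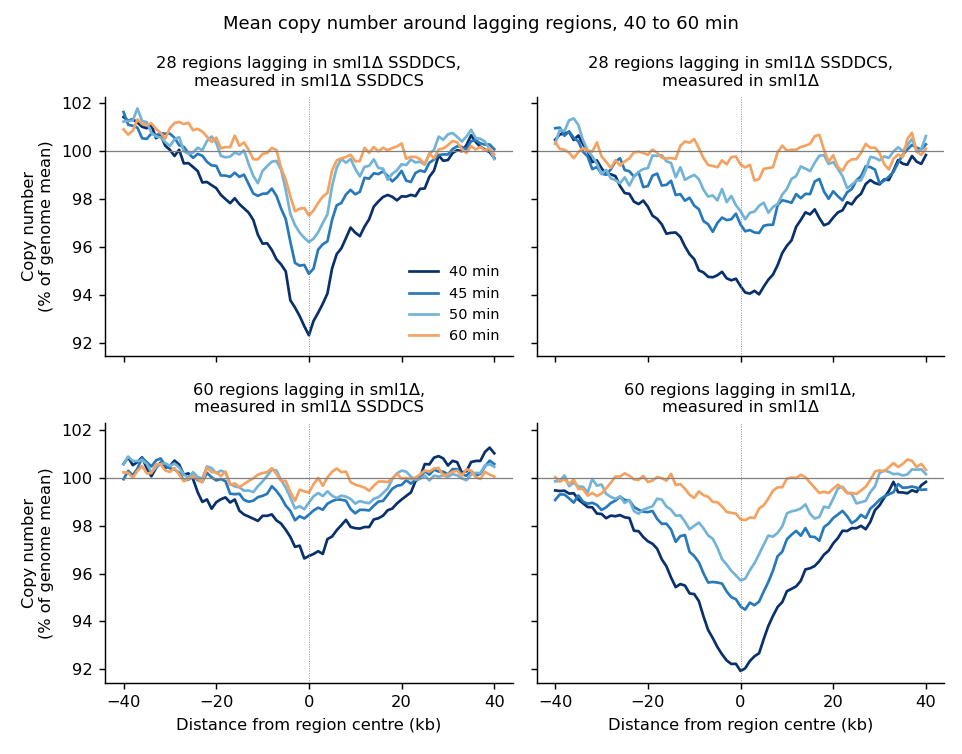
Mean copy number (y axis, % of the genome mean, running mean of 5 bins) against distance from the centre of lagging regions (x axis, kb), for the 28 regions of sml1Δ SSDDCS (top) and the 60 of sml1Δ (bottom), measured in sml1Δ SSDDCS (left) and sml1Δ (right) at 40, 45, 50 and 60 min. Within 2 kb of the centre at 40 min the SSDDCS regions were at 92.3% in SSDDCS and 94.4% in sml1Δ, and the sml1Δ regions at 96.7% in SSDDCS and 91.9% in sml1Δ, and the troughs are shallower at each later time.

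In mid S-phase, at times that the definition did not use, the regions were below the genome, over the same G1 library as in the definition. At 20 min the SSDDCS regions had a median of 83.6% in SSDDCS and 94.4% in sml1Δ, and the sml1Δ regions one of 88.7% in SSDDCS and 95.2% in sml1Δ. Relative to the genome of the same library, both sets were thus lower in SSDDCS at that time. The bulk factor was then 1.484 copies in SSDDCS and 1.366 copies in sml1Δ, so this order need not hold in copies. At 25 min the SSDDCS regions had a median of 80.0% in SSDDCS and 80.2% in sml1Δ, and at 30 min of 84.7% in SSDDCS and 84.4% in sml1Δ. The regions of sml1Δ had a median at 25 min of 91.7% in SSDDCS and 81.1% in sml1Δ, and at 30 min of 94.3% in SSDDCS and 83.2% in sml1Δ. By these medians over all 28, loci that lagged late in SSDDCS were about as low relative to the genome in sml1Δ as in SSDDCS. The median hides a split. At 30 min the 13 of them with no bin lagging in sml1Δ were at 85.1% in SSDDCS and 92.0% in sml1Δ. The other 15 were at 84.3% in SSDDCS and 78.7% in sml1Δ. Loci that lagged late in sml1Δ were the lower in sml1Δ. The lowest value of the time course fell at 20, 25 and 30 min in 5, 19 and 2 of the 28 SSDDCS regions in SSDDCS. For the 60 sml1Δ regions in sml1Δ it fell at these times in 2, 35 and 23. The same count was not made over all bins. The ratio of the 40 to the 60 min library, which holds no G1 reads but uses libraries that entered the definition, had a median of 96.4% in the SSDDCS regions in SSDDCS and of 94.1% in the sml1Δ regions in sml1Δ.

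Profiles of the 2 strains, which share no library, were correlated at 40 min and not at 60 min. Pearson's r across the 11283 smoothed bins between the strains was 0.520, 0.271, 0.136 and 0.005 in the libraries of 40, 45, 50 and 60 min. At 60 min the contrast was 1.22% in SSDDCS, and in sml1Δ the spread did not exceed the noise. A profile that is mostly noise cannot correlate with another, so the low r at 60 min does not show that the strains differ. The late mean of SSDDCS correlated at 0.445 with sml1Δ at 30 min, and the late mean of sml1Δ at 0.533 with SSDDCS at 30 min. Neighbouring smoothed bins overlap, and the strains share base composition and the mapping of reads, so these coefficients only describe the libraries.

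The lagging region of SSDDCS with the largest summed deficit lagged in both strains. It was chrIV:958001-980000 (22 kb, coordinates here and below 1-based on R64), which holds the kinetochore gene CHL4, the catalase gene CTA1, the mitochondrial chaperone gene HSP78 and the transcription factor genes MET32 and YAP6. It was at 89.3, 94.0, 96.9 and 97.9% in SSDDCS at 40, 45, 50 and 60 min, against 90.7, 94.8, 96.1 and 97.8% in sml1Δ. The 2 traces ran together, and 19 of its 22 bins lagged in sml1Δ too. Its nearest origins, ARS429 and ARS430, were 36.2 and 36.8 kb away. At 5 min it was at 99.4% in SSDDCS and 98.6% in sml1Δ, and all 22 bins were called again with the 5 min denominator. In copies it held 1.72 at 40 min and 1.95 at 60 min in SSDDCS, against 1.75 and 1.95 in sml1Δ.

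The second region, chrXII:170001-192000 (22 kb), lagged in SSDDCS with 0 of its bins lagging in sml1Δ. It holds PPR1, the activator of pyrimidine synthesis genes, BRE2 of the COMPASS histone methyltransferase, the nuclear pore gene POM34, and part of the ubiquitin ligase gene UBR2. It was at 92.6, 95.1, 96.2 and 97.6% in SSDDCS, against 98.9, 100.7, 98.7 and 100.3% in sml1Δ. The 4 SSDDCS values all lay below the 4 sml1Δ values, and the late means differed by -4.28 points ± 1.96 (SD over the 4 time points). With the 5 min denominator 18 of its 22 bins were called in SSDDCS, and the difference between strains was -2.24 points, the values at 5 min having been 99.1% in SSDDCS and 101.2% in sml1Δ. At 25 min the region had stood at 68.8% in SSDDCS and 86.4% in sml1Δ. ARS1209 was 13.2 kb to its left and ARS1210 30.4 kb to its right.

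The third region, chrXIII:316001-337000 (21 kb), carries the copper-sensing regulator MAC1, the ubiquitin-conjugating enzyme gene UBC7 and the cytokinesis gene HOF1, and ARS1310, printed above, is 29.1 kb to its left. It was at 91.1, 94.9, 97.3 and 98.5% in SSDDCS, against 97.0, 98.7, 97.0 and 99.3% in sml1Δ. The strains were within 1 point of each other at 50 and 60 min. At 5 min it was at 98.3% in SSDDCS and 98.4% in sml1Δ, and none of its 21 bins was called with the 5 min denominator, with which its late mean in SSDDCS was 97.4%. At 25 min it stood at 69.4% in SSDDCS and 77.5% in sml1Δ.

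The next regions, on chromosomes XV and X, lagged in both strains at 40 min. At chrXV:810001-828000 (18 kb), with the proteasome genes RPT4 and RPN8, the centrin gene CDC31 and the translation initiation factor gene GCD1, copy number was 92.7, 94.5, 97.5 and 96.2% in SSDDCS and 90.5, 95.4, 97.5 and 101.1% in sml1Δ. Of its 18 bins 17 lagged in sml1Δ, and 8 were called again in SSDDCS with the 5 min denominator, both strains having been at 99.5% at 5 min. At chrX:261001-275000 (14 kb) it was 91.5, 95.1, 95.2 and 96.8% in SSDDCS, against 92.0, 93.8, 96.7 and 99.3% in sml1Δ. The strains were within 3 points of each other up to 50 min in both regions, and SSDDCS was the lower at 60 min. The chromosome X region holds DPB11, 1 of the over-expressed genes, with the transcription factor gene SIP4, the arginine synthesis gene ARG3, the tRNA ligase gene TRL1 and the exocyst gene EXO70. Its value at 5 min was 98.7% in SSDDCS and 101.0% in sml1Δ, 9 of its 14 bins were called again in SSDDCS with the 5 min denominator, and the difference between strains then turned to 1.39 points. The lowest smoothed bin of SSDDCS lay in it, in SIP4, at 93.0%, 31.6 kb from the nearest origin.

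**Figure D3:**
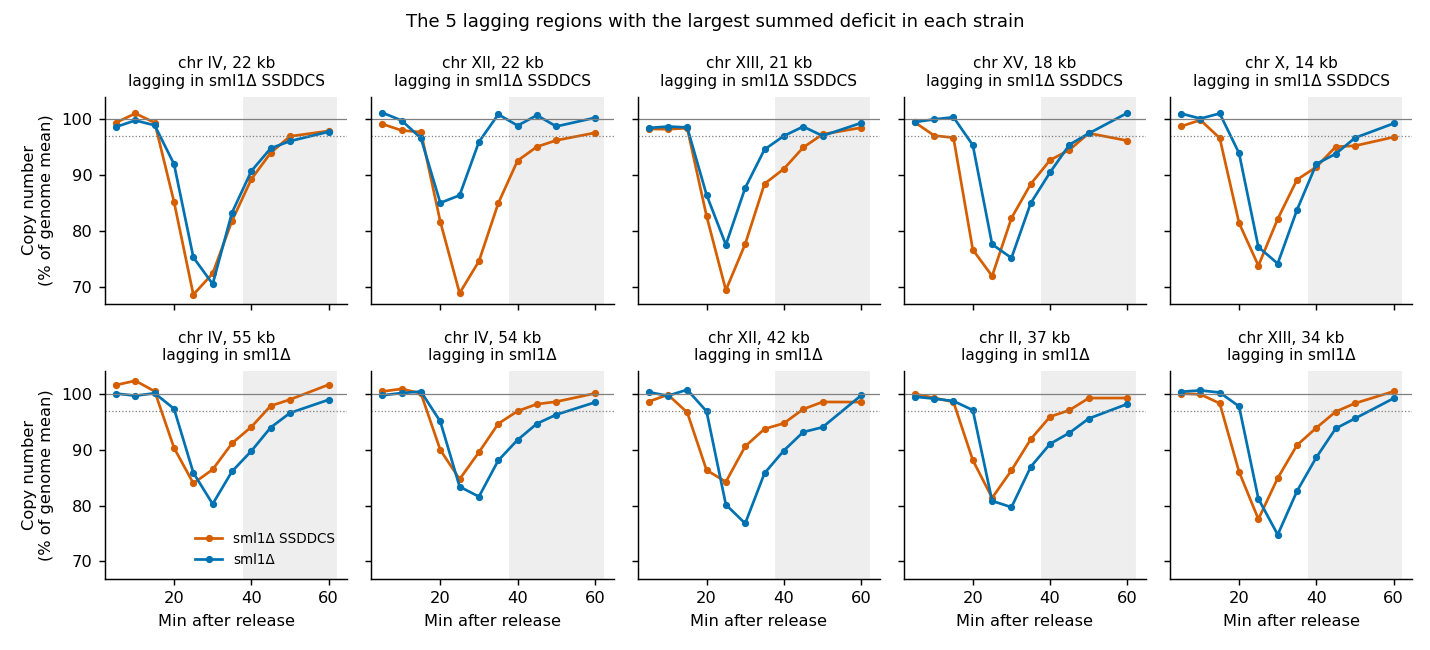
Copy number (y axis, % of the genome mean) against minutes after release (x axis) in the 5 lagging regions with the largest summed deficit of sml1Δ SSDDCS (top) and of sml1Δ (bottom), in sml1Δ SSDDCS (orange) and sml1Δ (blue), 1 library per point. The dotted line is the 97% threshold and the grey band marks 40 to 60 min. On chromosome XII in the top row the 2 strains stay apart (97.6% against 100.3% at 60 min), and on chromosome IV they run together.

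The 5 leading regions of sml1Δ were longer, 34 to 55 kb, and in each of them copy number was higher in SSDDCS at 40, 45 and 50 min. The first, chrIV:817001-872000 (55 kb), holds the cohesin loader gene SCC2, the chaperonin gene CCT6, the helicase gene RVB1 and the meiotic repressor gene UME6. It was at 94.1, 97.9, 99.0 and 101.7% in SSDDCS, against 89.8, 94.0, 96.6 and 99.0% in sml1Δ. The late means differed by 3.33 points ± 0.92 (SD over 4 time points), and by 1.92 points with the 5 min denominator, since SSDDCS was at 101.6% there at 5 min.

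On the left arm of the same chromosome, chrIV:139001-193000 (54 kb) ends 19.6 kb from ARS409 and holds GLT1, the glutamate synthase gene, CDC9, the replicative DNA ligase gene, and CLB3, a B-type cyclin gene. Copy number there was 96.9, 98.2, 98.6 and 100.1% in SSDDCS and 91.8, 94.7, 96.3 and 98.5% in sml1Δ. SSDDCS was thus the higher at all 4 times. At chrXII:833001-875000 (42 kb), 13.7 kb from ARS1238, with the mating pathway kinase gene STE11, the transaldolase gene TAL1 and FBP1, a gluconeogenic enzyme gene, it was 94.7, 97.3, 98.6 and 98.5% in SSDDCS and 89.9, 93.2, 94.0 and 99.7% in sml1Δ. Here sml1Δ was the higher at 60 min.

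At chrII:653001-690000 (37 kb), which holds the pyruvate carboxylase gene PYC2, the DNA repair gene TDP1 and LSR1, the U2 spliceosomal RNA gene, copy number was 95.9, 97.1, 99.3 and 99.3% in SSDDCS and 91.1, 93.0, 95.6 and 98.2% in sml1Δ. At chrXIII:710001-744000 (34 kb), 14.3 kb from ARS1327, it was 93.9, 96.8, 98.3 and 100.5% in SSDDCS, against 88.6, 93.8, 95.6 and 99.2% in sml1Δ. This region holds MRE11 of the double-strand break repair complex, the TFIID subunit genes TAF7 and TAF9 and the RNase H gene RNH1. With the 5 min denominator 33 of its 34 bins were called in sml1Δ, and in the other 4 regions of sml1Δ 50 of 55, 43 of 54, 37 of 42 and 37 of 37. At 5 min the 5 regions were at 98.6 to 101.6% in SSDDCS and at 99.5 to 100.4% in sml1Δ.

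Regions that lagged in one strain alone were found in both directions. Of the 28 regions of SSDDCS, 13 (126 kb) held no bin that lagged in sml1Δ, and of the 60 of sml1Δ, 45 (539 kb) held none that lagged in SSDDCS. In those 13 the median at 40 min was 93.9% in SSDDCS and 97.4% in sml1Δ, and at 25 min 80.5% in SSDDCS and 86.0% in sml1Δ. In those 45 it was 98.1% in SSDDCS and 93.3% in sml1Δ at 40 min, and at 25 min 93.2% in SSDDCS and 81.8% in sml1Δ. A bin past the threshold in one strain may lie just short of it in the other, so the difference between strains was also mapped directly.

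SSDDCS was lower than sml1Δ by at least 3 points over 76 regions (622 kb, 5.51% of bins) and higher by as much over 94 regions (949 kb, 8.41% of bins). Of the regions lower in SSDDCS, 18 held 19 annotated origins, and of those higher in SSDDCS, 12 held 13. Of 319 measured origins these are 5.96%, near the share of bins in the lower regions, and 4.08%, below the share of bins in the higher regions. The regions lower in SSDDCS were mostly not lagging regions: their median late value was 98.4% in SSDDCS and 103.1% in sml1Δ. The regions higher in SSDDCS had a median of 102.0% in SSDDCS and 97.2% in sml1Δ. By their medians, the first kind lay where sml1Δ was above the genome mean and the second where it was below. Part of both differences was already there at 5 min, when the regions lower in SSDDCS had a median of 98.4% in SSDDCS and 100.5% in sml1Δ, and the regions higher in SSDDCS one of 101.5% in SSDDCS and 99.4% in sml1Δ.

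The region with the largest summed difference was higher in SSDDCS. It was chrVII:1023001-1067000 (44 kb), near the right end, with the TFIID gene TAF1, the chromatin factor gene YTA7, the RNA helicase gene SLH1 and the ribonuclease gene RNH70. Copy number was 99.7, 100.7, 100.8 and 101.6% in SSDDCS, against 91.7, 93.2, 94.7 and 98.7% in sml1Δ. SSDDCS was the higher at every time, by 6.12 points ± 2.29 (SD over 4 time points) in the mean and by 4.35 points with the 5 min denominator. The lowest smoothed bin of sml1Δ, at 90.7% and 37.1 kb from the nearest origin, lay in it, where YGR273C and TAF1 are. SLH1 itself was at 96.4, 99.0, 99.2 and 100.1% in SSDDCS and at 87.0, 91.2, 90.6 and 96.5% in sml1Δ.

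The other 4 leading regions higher in SSDDCS were chrII:531001-560000 (29 kb, with the translation release factor gene SUP45 and the RNA polymerase subunit gene RPB5), chrIV:830001-850000 (20 kb, inside the longest lagging region of sml1Δ), chrXIV:379001-402000 (23 kb, with the mitochondrial import genes TOM22 and TOM70) and chrXVI:895001-913000 (18 kb, with the COPII gene SEC23 and the autophagy gene ATG13). Their late means differed by 4.13, 6.03, 4.58 and 6.09 points, with SDs over 4 time points of 2.11, 1.68, 0.67 and 1.77. With the 5 min denominator the differences were 3.78, 2.64, 4.19 and 6.43 points. All 4 kept their sign, and that on chromosome IV was reduced most, SSDDCS having stood at 103.2% there at 5 min. At chrXVI:895001-913000 copy number was 98.0, 100.1, 100.6 and 100.7% in SSDDCS and 90.4, 93.5, 93.9 and 97.2% in sml1Δ.

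The leading region lower in SSDDCS, chrXII:612001-634000 (22 kb), was the only one of the 5 besides that on chromosome VII to hold an origin, ARS1219. Copy number was 98.6, 97.2, 96.7 and 97.9% in SSDDCS, against 104.1, 102.7, 102.2 and 100.6% in sml1Δ. It stayed within 2 points in SSDDCS, and it was nearer the genome mean at each later time in sml1Δ. At 5 min it was at 99.3% in SSDDCS and 98.6% in sml1Δ, and the difference of -4.81 points ± 1.35 (SD over 4 time points) was -5.42 points with the 5 min denominator. The region holds the phosphatidylinositol kinase gene VPS34 and the thiamine transporter gene THI7. The second, chrXII:164001-182000 (18 kb), overlaps the second lagging region of SSDDCS above and was at 94.0, 96.1, 97.6 and 97.8% in SSDDCS, against 102.0, 101.9, 102.8 and 102.3% in sml1Δ. At 5 min it was already at 99.1% in SSDDCS and 102.1% in sml1Δ, and the difference of -5.86 points was -2.80 points with the 5 min denominator, with which 0 of 18 bins were called, and -3.51 points with the mean of the 5 and 10 min libraries. The bulk factor at 10 min was already 1.107 copies in SSDDCS, against 1.021 copies in sml1Δ, so this last denominator is not the same in both strains.

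The fourth, chrII:266001-283000 (17 kb), holds the GAL cluster, whose products carry out the first steps of galactose use, and ARS209 is 11.0 kb to its left. It was at 99.0, 99.3, 99.1 and 100.0% in SSDDCS, against 106.1, 103.9, 104.2 and 101.8% in sml1Δ. SSDDCS was at the genome mean and sml1Δ above it. The difference of -4.69 points ± 2.18 (SD over 4 time points) was -5.25 points with the 5 min denominator, with which all 17 bins were called again. At 25 min the region stood at 90.4% in SSDDCS and 114.4% in sml1Δ. The late mean was 97.0% in SSDDCS and 103.8% in sml1Δ at GAL7, 97.3% in SSDDCS and 103.5% in sml1Δ at GAL10, and 99.1% in SSDDCS and 103.6% in sml1Δ at GAL1. The GAL1-10 promoters of the 3 cassettes add reads to the bins between GAL10 and GAL1 in SSDDCS, and their part was not tested.

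Differences on chromosomes X and VII depended on which early library was the denominator. At chrX:506001-526000 (20 kb, 14.7 kb from ARS1018), with the DNA polymerase delta subunit gene POL32 and the mitochondrial chaperone gene SSC1, copy number was 95.2, 98.1, 98.0 and 100.3% in SSDDCS, against 102.8, 103.0, 104.0 and 102.0% in sml1Δ. At chrVII:831001-845000 (14 kb), which holds ARS731 and the clathrin light chain gene CLC1, it was 97.7, 97.8, 96.9 and 96.7% in SSDDCS, against 106.3, 103.3, 101.3 and 101.7% in sml1Δ. With the 5 min denominator the differences of -5.08 and -5.88 points became -1.71 and -1.86 points, and 0 of 20 and 2 of 14 bins were called. With the mean of the 5 and 10 min libraries as denominator they were -3.66 and -5.56 points. At 10 min replication was further on in SSDDCS (bulk factor 1.107 copies) than in sml1Δ (1.021 copies), so this is not an equal check.

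Origins next to the regions stood apart between strains in mid S-phase. Of 87 measured origins that flank the lagging regions of sml1Δ, 64 were higher in SSDDCS at 25 min, with a median of 105.7% in SSDDCS and 99.3% in sml1Δ. Of 102 that flank the regions lower in SSDDCS, 83 were lower in SSDDCS, with a median of 107.7% in SSDDCS and 115.8% in sml1Δ. Over all 319 measured origins, 145 were higher and 174 lower in SSDDCS, with medians of 107.3% in SSDDCS and 108.2% in sml1Δ. These counts are relative to the genome of each library. The bulk factor at 25 min was the higher in SSDDCS (1.662 against 1.599 copies), so they do not mean fewer copies at origins in SSDDCS. Of the 45 that flank the lagging regions of SSDDCS, 19 were higher and 26 lower in SSDDCS, a division near that of all origins. The 25 min libraries are over the same G1 library as the late ones, which is a shared part of these comparisons.

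Copy number fell with distance from the nearest annotated origin in both strains, and the range was narrower in SSDDCS. Within 5 kb of an origin the late median of bins was 100.6% in SSDDCS and 100.9% in sml1Δ, and beyond 20 kb it was 99.1% in SSDDCS and 98.8% in sml1Δ. The difference between these classes was -1.54 points in SSDDCS, negative on 14 of 15 chromosomes, and -2.13 points in sml1Δ, negative on 15 of 15. At 40 min the bins beyond 20 kb were at 98.0% in SSDDCS and 97.4% in sml1Δ, and at 60 min at 99.8% in SSDDCS and 99.8% in sml1Δ. Lagging bins were mostly far from origins: 92.5% of them in SSDDCS and 63.7% in sml1Δ were over 20 kb away, against 23.6% of all bins. Beyond 20 kb, 9.21% of bins lagged in SSDDCS and 22.6% in sml1Δ.

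**Figure D4:**
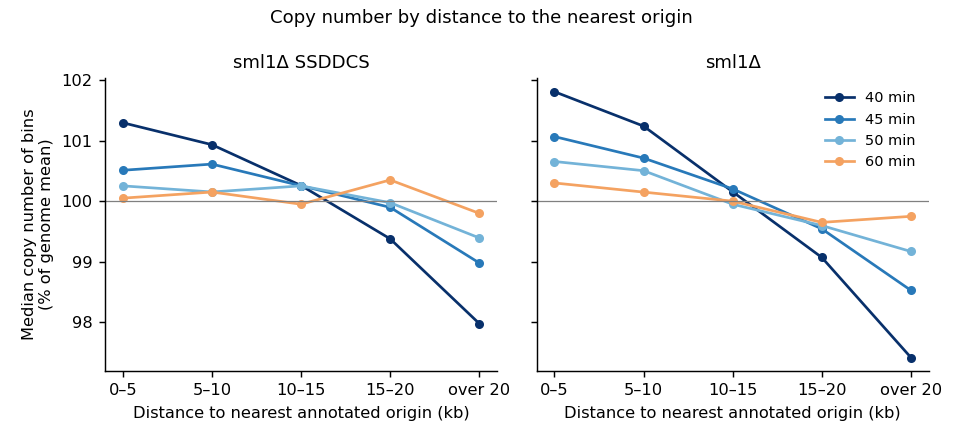
Median copy number of 1-kb bins (y axis, % of the genome mean) by distance to the nearest annotated origin (x axis, kb) in sml1Δ SSDDCS (left) and sml1Δ (right) at 40, 45, 50 and 60 min, 1 library per line. At 40 min the medians fall with distance to 98.0% in SSDDCS and 97.4% in sml1Δ beyond 20 kb, and at 60 min the lines are nearly flat.

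Long gaps between origins gave a similar picture, less even over chromosomes in SSDDCS. At the middle of gaps over 40 kb (109 gaps) the median was 99.4% in SSDDCS and 98.8% in sml1Δ, and at the middle of gaps under 20 kb (92 gaps) it was 100.7% in SSDDCS and 101.3% in sml1Δ. The difference was -1.31 points in SSDDCS, negative on 11 of 15 chromosomes, with an SD over chromosomes of 1.82 points. In sml1Δ it was -2.55 points, negative on 14 of 15, with an SD of 1.62 points. The middle lagged in 10 of the 109 long gaps in SSDDCS (9.17%) and in 25 in sml1Δ (22.9%), and in 0 of the 92 short gaps in SSDDCS and 1 in sml1Δ. A long gap did not by itself mean a lag. The longest, 152 kb on chromosome XV between ARS1513 and ARS1501, was at 98.7% in SSDDCS and 100.9% in sml1Δ at its middle, while that of 106 kb between ARS217 and ARS220 on chromosome II was at 94.1% in SSDDCS and 97.7% in sml1Δ. RefSeq may lack some origins, so a gap may hold one that is not annotated.

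Centromeres, which replicate early in yeast, were not among the lagging loci, and the excess they had in sml1Δ was smaller in SSDDCS. None of 313 bins within 10 kb of a centromere lagged in either strain. Their late median was 100.5% in SSDDCS and 102.5% in sml1Δ, and SSDDCS was the lower at 15 of 16 centromeres. At 40 min the median was 101.1% in SSDDCS and 104.7% in sml1Δ, and at 60 min 99.9% in SSDDCS and 99.8% in sml1Δ. The strains thus stood nearly level at 60 min. Relative to the rest of the genome the flanks were 0.503 points higher in SSDDCS, positive at 10 of 16 chromosomes, and 2.45 points higher in sml1Δ, positive at 15 of 16. CEN9 stood at 98.3% in SSDDCS and 102.9% in sml1Δ, the widest difference of the 16.

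Chromosome ends, which replicate late in yeast, held few lagging bins in SSDDCS. Within 50 kb of an end the late median was 100.0% in SSDDCS and 99.8% in sml1Δ, and lagging bins were found at 1 of 32 ends in SSDDCS and at 9 of 32 in sml1Δ. They made up 0.422% of these bins in SSDDCS and 8.53% in sml1Δ, against 2.35% of all bins in SSDDCS and 8.37% in sml1Δ, so in sml1Δ the ends were near the share of the genome. From 20 to 50 kb, 0 bins lagged in SSDDCS and 71 in sml1Δ. Within 20 kb the order of the strains turned with time. The median there was 99.9, 99.0, 98.8 and 98.9% in SSDDCS at 40, 45, 50 and 60 min, against 98.7, 99.6, 99.8 and 100.6% in sml1Δ. At 5 min it was 99.4% in SSDDCS and 100.3% in sml1Δ. Of 773 bins with no late value, 358 lay within 20 kb of an end, so the outermost sequence is mostly not measured.

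Lagging was found on 8 of 16 chromosomes in SSDDCS and on 14 of 16 in sml1Δ. Chromosomes III and V had none in either strain. Chromosome IV had the highest share in sml1Δ, 4.52% of its bins in SSDDCS and 18.7% in sml1Δ. Chromosome XII had the highest share in SSDDCS, 5.73% in SSDDCS and 6.95% in sml1Δ, and chromosome X was alike in both, 5.64% in SSDDCS and 5.93% in sml1Δ. Chromosomes XIV and XVI were nearly or wholly free of lag in SSDDCS, with 0.833% in SSDDCS and 12.8% in sml1Δ on XIV and with 0% in SSDDCS and 7.27% in sml1Δ on XVI. Longer chromosomes had lower late means in both strains, with Spearman's rho over 16 chromosomes of -0.853 in SSDDCS and -0.774 in sml1Δ, a description of these libraries.

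**Figure D5:**
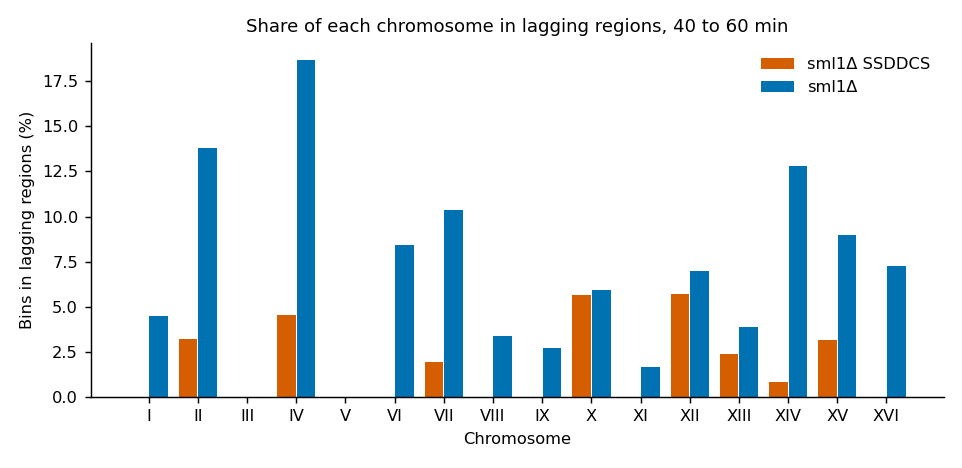
Share of the bins of each chromosome that lie in lagging regions (y axis, %) for the 16 chromosomes (x axis) in sml1Δ SSDDCS (orange) and sml1Δ (blue), from the mean of 4 libraries per strain. The sml1Δ bar is the higher on 14 chromosomes, chromosomes III and V have no bar, and the highest bars are 5.73% on XII in SSDDCS and 18.7% on IV in sml1Δ.

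Genes of several classes were counted in lagging regions beside the share of all bins, 2.35% in SSDDCS and 8.37% in sml1Δ. Protein-coding genes were near it, with 140 of 5708 measured (2.45%) in SSDDCS and 481 (8.43%) in sml1Δ. Of 260 measured tRNA genes, which are known to slow passing forks, 3 (1.15%) lagged in SSDDCS and 5 (1.92%) in sml1Δ. Of the same genes 28 (10.8%) lay in regions lower in SSDDCS than in sml1Δ, where 5.51% of bins lie. In regions higher in SSDDCS, where 8.41% of bins lie, there were 9 (3.46%). Of 301 long terminal repeats, remnants of transposons that often lie beside tRNA genes, 32 (10.6%) lay in regions lower in SSDDCS and 7 (2.33%) in regions higher in SSDDCS. Of the 50 retrotransposons 0 were measured.

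Of 130 ribosomal protein genes 1 (0.769%) lagged in SSDDCS and 3 (2.31%) in sml1Δ. Of the 8 core histone genes 0 lagged in either strain, too few genes to set against the share of all bins. HHF1, a histone H4 gene, was at 99.0, 100.9, 99.3 and 100.0% in SSDDCS, against 104.9, 103.4, 103.2 and 100.0% in sml1Δ, and it lies beside ARS209. The 7 GAL genes were as few, with 0 lagging in either strain, and the 3 in regions lower in SSDDCS are the cluster described above. Of 67 measured genes of at least 5 kb, 2 (2.99%) lagged in SSDDCS, UBR2 and CSF1, and 6 (8.96%) in sml1Δ, both near the share of all bins, among them POL2, the catalytic subunit of DNA polymerase epsilon, and RRP5, a ribosome assembly gene. POL2 was at 99.0, 100.2, 100.5 and 100.9% in SSDDCS, against 93.9, 95.4, 95.3 and 97.3% in sml1Δ.

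Of the 6 over-expressed genes only DPB11 was in a lagging region, and only in SSDDCS by the threshold. It was at 94.4, 95.9, 96.6 and 98.2% in SSDDCS, against 93.9, 94.9, 99.4 and 100.5% in sml1Δ. The strains were alike at 40 and 45 min, and SSDDCS was the lower at 50 and 60 min. The late mean was 96.3% in SSDDCS and 97.2% in sml1Δ. The native locus and the cassette at trp1 both give reads to this bin in SSDDCS. DBF4 was at 100.7% in SSDDCS and 104.1% in sml1Δ, and CDC45 at 98.2% in SSDDCS and 100.4% in sml1Δ.

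Base composition differed little. The GC content was 37.5% in the lagging bins of SSDDCS and 37.9% in those of sml1Δ, against 38.2% over all bins. ARS consensus matches numbered 6.42 per 100 kb in the lagging bins of SSDDCS and 4.66 in those of sml1Δ, against 6.45 over all bins.

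A bin in the ribosomal DNA, a long repeat on chromosome XII, was set aside because its late mean was outside 0.5 to 1.5 of the genome mean. This bin, chrXII:459001-460000 at RDN5-1, had a ratio of 2.108, 1.497, 1.517 and 1.473 in SSDDCS at 40, 45, 50 and 60 min, against 2.569, 3.5, 4.108 and 3.243 in sml1Δ. At 5 min the ratio was 0.915 in SSDDCS and 1.138 in sml1Δ. The SSDDCS values lay below 2 from 45 min on, and all late sml1Δ values above it. A single round of replication cannot raise a ratio to G1 far above 2, so these ratios are not read as copies. Reads were kept only where they mapped uniquely, so a repeat is only in part measured.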

How the data were processed

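Whole-genome sequencing libraries of synchronised cells were used, 1 for each strain and time. The authors mapped reads with Bowtie2 2.2.6 to S288C R64 (sacCer3) and counted unique reads in 1-kb bins with bedtools 2.26.0. Each deposited table holds a ratio per bin, time point over G1 of the same strain, multiplied by the bulk factor, a second deposited ratio that is constant in a table. SAMtools is listed as version 1.7.2 in the submitters' processing notes. All 248957 bins of the 22 tables lay inside the chromosomes of RefSeq R64, whose annotation gave origins and genes. G1 tables were not used here.

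With Python 3.11.15, numpy 2.4.6 and pandas 2.3.3, the ratio was divided by the bulk factor, averaged over 40 to 60 min and smoothed over 9 bins (at least 5 present). Bins below 0.5 or above 1.5 of the genome were set aside (1 bin). Regions were runs of at least 5 bins past 3%. Noise was a robust SD (from the median absolute deviation) of differences between neighbouring bins. The steps were run on simulated data with planted lags, independent bins and the same noise in both strains. That run therefore does not give the rate of false calls in SSDDCS, the noisier strain. Named loci were the 5 regions with the largest summed deficit or difference in each set, with flanking origins and listed gene classes. Members, lists and rules were chosen with earlier results of these data known. Alternatives were other windows, cut-offs, denominators, scalings and sets of time points, and none used a test, since each group has 1 library.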

Additional observations from a re-analysis of the deposited data

How the results depend on the processing

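No paired analysis was possible because the labels give no replicates that could be paired across the strains. The SDs over 4 time points pair libraries by time and are descriptions. Lagging regions covered fewer kb in SSDDCS than in sml1Δ under every alternative tried, and regions higher in SSDDCS covered more kb than regions lower in SSDDCS. The sizes depended on the cut-off, window and run length. With a cut-off of 2% there were 84 lagging regions (826 kb) in SSDDCS and 107 (1726 kb) in sml1Δ, and 164 lower (1507 kb) and 178 higher (1901 kb) in SSDDCS. With 5% there were 3 (26 kb) in SSDDCS and 15 (204 kb) in sml1Δ, and 13 lower (84 kb) and 15 higher (119 kb) in SSDDCS. A moving average over 5 bins gave 45 lagging regions in SSDDCS and 93 in sml1Δ, and 120 lower and 143 higher in SSDDCS. One over 15 bins gave 35 lower (389 kb) and 61 higher in SSDDCS. A moving median gave 51 lagging regions (486 kb) in SSDDCS and 939 kb lower in SSDDCS. Runs of at least 9 bins left 12 lagging regions (169 kb) in SSDDCS and 39 in sml1Δ, and 24 lower (305 kb) and 50 higher in SSDDCS. Without the 40 min libraries 138 kb lagged in SSDDCS and 473 kb in sml1Δ, and without the 60 min libraries 43 regions (469 kb) lagged in SSDDCS, so leaving out 40 min shortened and leaving out 60 min lengthened the lagging total. The contrast of sml1Δ at 50 min was 1.44% from the covariance of bins 2 apart, and at 60 min 1.19% with the 5 min denominator, against 0.461% in SSDDCS. The cause was not tested. The other values that answer a comparison, 192 of 230, stayed within 1.5 times (counts and lengths) or within the SD over chromosomes. The use of the mean of the 5 and 10 min libraries as denominator was chosen after seeing the data, and replication had begun in SSDDCS by 10 min. Under it, the 5 min denominator and the omission of each time, all 20 named regions kept their sign. For lagging regions this is the sign of the deficit in their own strain, not of the difference between strains. With the 5 min denominator that difference turned in the named lagging region of SSDDCS on chromosome X. The 20 regions were chosen for large values in these same late libraries. A kept sign was therefore largely built in and is not an independent check. Unknown depth and 1 library per strain and time limit single bins and values at 60 min.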
